A study of Mus musculus with 4 samples.

Results

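The genes described here are 10 members of oncostatin M and interleukin-6 (IL-6) family signalling, found by their symbols among the 32285 features counted in spatial sections of tibial muscle. They are the ligands Osm, Il6, Lif and Il11, the receptor chains Osmr, Il6ra, Lifr and Il6st, the transcription factor Stat3 and the feedback inhibitor Socs3. Each symbol matched 1 feature. The study used Nse-Bmp4 mice, injected cardiotoxin, a snake venom toxin that kills muscle fibres, into the tibial muscle, and asked where inflammatory cells and mesenchymal stem cells (MSCs) lie as heterotopic ossification, the growth of bone in soft tissue, begins.

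There were 4 fresh frozen sections, 1 each from uninjured muscle (day 0) and from muscle at days 1, 3 and 7 after injury. The mice of all 4 groups were C57BL/6 animals aged 6 to 8 weeks of the Nse-Bmp4 genotype, so the uninjured section carried the transgene too. In this line mouse Bmp4 cDNA is driven by the rat neuron-specific enolase promoter, and no wild-type section is described here. The labels state that 3 tibial muscles were mixed for a group, but a section has 1 set of counts and the muscles cannot be separated in it. Each day therefore had 1 section, no test between days was possible, and the intervals given below cover counting error only.

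Transcripts were counted as unique molecular identifiers (UMIs) in spots, small areas of a section that can each hold several cells. The sections held 2107 spots on day 0, 2667 on day 1, 3029 on day 3 and 3032 on day 7, with 43871586, 16777832, 56113066 and 41832640 UMIs. Day 1 was the shallowest section, with a median of 6322 UMIs per spot, against 12120 to 21029 in the other sections. Levels are given as CPM, the UMIs of a gene per 1000000 UMIs of its section. In such summed values fewer cells of a type and less RNA per cell cannot be told apart. The tissue label was borne out at day 0, where 12 adult myofibre genes, such as Acta1, Ckm and Myh4, held 23.2% of all UMIs. Their share was 12.2% on day 1, 7.70% on day 3 and 13.7% on day 7, so part of every CPM ratio below moves with the loss of these abundant transcripts.

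Cytokines of the IL-6 family signal through receptor complexes that share the Il6st product. IL-6 and IL-11 first bind a receptor of their own, LIF uses the Lifr chain, and oncostatin M of the mouse signals mainly through the Osmr chain paired with the Il6st product. The complexes activate Janus kinases, which phosphorylate STAT3, and STAT3 in turn induces Socs3, whose product binds the receptor and the kinases and shuts the signal off. In damaged muscle the family is known for acute inflammation, for the control of satellite cells and, in models of heterotopic ossification, for oncostatin M made by macrophages.

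RefSeq promoter windows (GRCm38.p6, 250 bases before to 50 bases after a transcript start) were at hand for 9 of the 10 members, all but Osm, in 11 windows. The motif TTCNNNGAA, the palindromic core that activated STAT dimers bind, was searched for in them. It reads the same on both strands in its fixed letters, and it occurred in 8.30% of all 32851 windows. Among the members it was present in 1 of 11 windows, that of Socs3, which is shown because Socs3 had the largest ratio to day 0 among the members well detected in uninjured muscle. The window lies at chr11:117969317-117969616 on the minus strand, and the motif, in capitals, spans positions -154 to -146 from the transcript start.
Socs3 promoter: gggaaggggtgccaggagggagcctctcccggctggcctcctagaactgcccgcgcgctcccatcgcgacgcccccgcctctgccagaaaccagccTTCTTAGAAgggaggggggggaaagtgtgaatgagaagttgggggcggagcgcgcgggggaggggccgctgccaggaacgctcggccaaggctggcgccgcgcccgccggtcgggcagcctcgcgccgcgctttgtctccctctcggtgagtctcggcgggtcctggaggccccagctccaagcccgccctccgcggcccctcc
The Osmr window, which held no match, lies at chr15:6874264-6874563 on the minus strand and is given for comparison, as that of the receptor chain specific to oncostatin M.
Osmr promoter: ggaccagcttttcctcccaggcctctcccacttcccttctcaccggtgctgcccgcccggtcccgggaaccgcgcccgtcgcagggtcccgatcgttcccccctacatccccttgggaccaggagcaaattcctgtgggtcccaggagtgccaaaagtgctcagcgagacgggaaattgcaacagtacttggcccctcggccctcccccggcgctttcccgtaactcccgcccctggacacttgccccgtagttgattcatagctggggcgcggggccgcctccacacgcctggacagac
A match is a description of these letters and not a measured binding site.

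Most members were highest at day 3, and 3 of them, Osm, Il6 and Il11, were close to undetected in uninjured muscle. Socs3, with many more UMIs, was also highest at day 3. The exceptions were Lif, Lifr and Il6st, which had their highest CPM at day 7, although with edgeR TMM or DESeq2 scaling Lifr was below day 0 there. The plot of member levels shows all 10 genes by day.

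**Figure D1:**
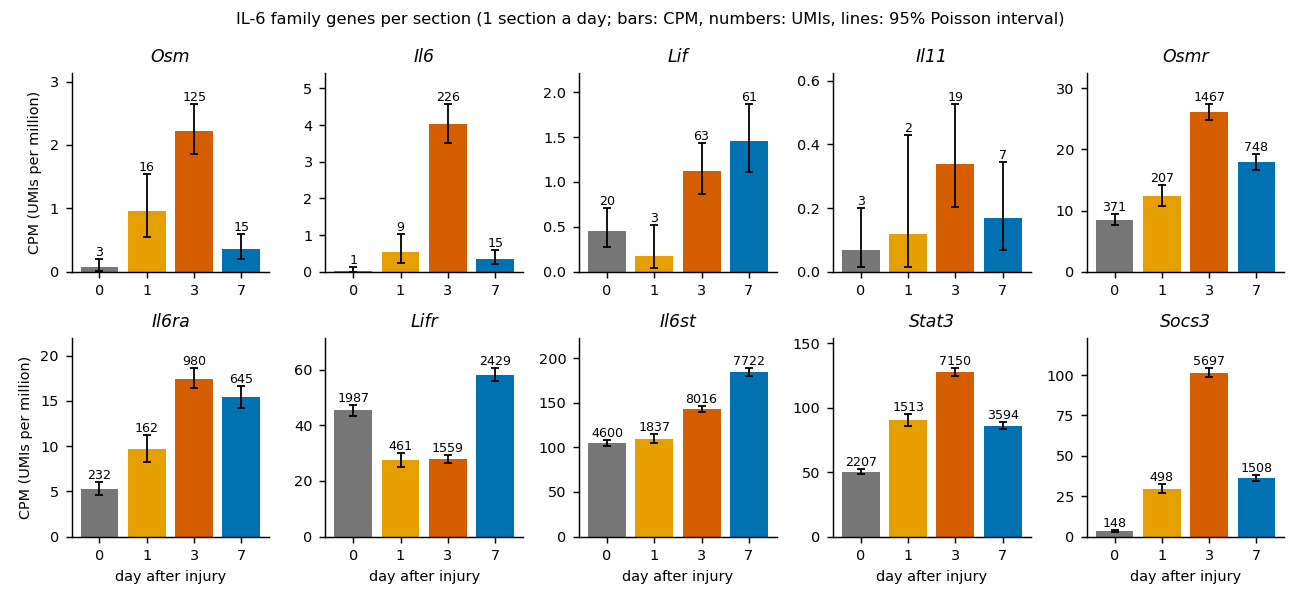
Level of each member in the 4 sections, as CPM (vertical axes, each from 0) against day after injury. Bars are 1 section each, lines are exact 95% Poisson intervals and the numbers are UMIs. Osm, Il6, Osmr, Il6ra, Stat3 and Socs3 are highest at day 3, with 125, 226, 1467, 980, 7150 and 5697 UMIs, whereas Lif and Il6st have their highest CPM at day 7.

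Among the ligands, Osm (ENSMUSG00000058755, GRCm38.p6 chromosome 11, 4236785 to 4241026) encodes oncostatin M, a cytokine made mainly by myeloid cells. It gave 3 UMIs on day 0, 16 on day 1, 125 on day 3 and 15 on day 7, or 0.0684, 0.954, 2.23 and 0.359 CPM. Its level at day 3 stood above all other days by non-overlapping Poisson intervals. Against day 0 the CPM was 13.9 times higher on day 1 (95% interval 3.99 to 74.7), 32.6 times on day 3 (10.9 to 160) and 5.24 times on day 7 (1.48 to 28.3). From day 3 to day 7 it was 6.21 times lower, and day 7 was also below day 1, with a ratio of 0.376 (0.173 to 0.812). The Osm UMIs were scattered, since 117 of 3029 spots had one at day 3 and no spot had more than 3.

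Il6 (chromosome 5, 30013114 to 30019975) encodes the founding cytokine of the family. Its UMIs numbered 1 on day 0, 9 on day 1, 226 on day 3 and 15 on day 7, which is 0.0228, 0.536, 4.03 and 0.359 CPM. Only the day 3 section stood apart from both other injured sections. Day 3 was 177 times above day 0, but with a single UMI at day 0 the interval ran from 31.4 to 7010. A firmer ratio is that between injured days, 7.51 times from day 1 to day 3 (3.89 to 16.6), with day 7 then 11.2 times lower than day 3. At day 3 the Il6 UMIs lay in 176 spots, with up to 7 in a spot.

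Lif and Il11 were sparse. Lif, which encodes leukemia inhibitory factor and neighbours Osm on chromosome 11 (4257568 to 4272514), had 20, 3, 63 and 61 UMIs from day 0 to day 7. Day 7 was 3.20 times above day 0 (1.90 to 5.60) and day 3 was 2.46 times above it (1.47 to 4.30). At day 1 the 3 UMIs gave a ratio of 0.392 to day 0 with an interval from 0.0746 to 1.32, so no difference was detectable at this depth. Unlike Osm and Il6, Lif had no lower level at day 7 than at day 3, with a ratio of 1.30 (0.898 to 1.88). Il11, which encodes interleukin-11, gave 3, 2, 19 and 7 UMIs, and only its day 3 ratio to day 0 had an interval above 1, at 4.95 (1.46 to 26.1).

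Among the receptor chains, Osmr (ENSMUSG00000022146, chromosome 15, 6813568 to 6874968) encodes the chain that gives oncostatin M its own receptor. Its UMIs were 371 on day 0, 207 on day 1, 1467 on day 3 and 748 on day 7, and its levels 8.46, 12.3, 26.1 and 17.9 CPM. No 2 of these 4 Poisson intervals overlapped, in the order day 0, day 1, day 7, day 3. Relative to uninjured muscle Osmr was 1.46 times higher on day 1 (1.22 to 1.73), 3.09 times on day 3 (2.76 to 3.47) and 2.11 times on day 7 (1.86 to 2.40). In contrast to its ligand, it was readily detected before injury, in 299 of 2107 spots.

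Il6ra encodes the chain that binds IL-6 itself, and its course was close to that of Osmr up to day 3. It had 232, 162, 980 and 645 UMIs, or 5.29, 9.66, 17.5 and 15.4 CPM at days 0, 1, 3 and 7. The ratio to day 0 was 3.30 at day 3 (2.86 to 3.83) and 2.92 at day 7 (2.51 to 3.40). From day 3 to day 7 Il6ra was 1.13 times lower, a smaller step than the 1.46 times of Osmr.

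Lifr and Il6st took another course. Lifr, the chain used by LIF and related ligands, gave 1987, 461, 1559 and 2429 UMIs and 45.3, 27.5, 27.8 and 58.1 CPM. Its level was 1.65 times lower on day 1 and 1.63 times lower on day 3 than in uninjured muscle, and on day 7 it was 1.28 times higher (1.21 to 1.36), a direction that turned to a log2 ratio of -0.25 with edgeR TMM factors. Il6st, the chain common to the family, had 4600, 1837, 8016 and 7722 UMIs and 105, 109, 143 and 185 CPM. By section totals, day 1 did not differ from day 0 beyond counting error (ratio 1.04, interval 0.989 to 1.1), whereas day 7 was 1.76 times higher (1.70 to 1.83). With edgeR TMM factors, a log2 shift of -0.19 on day 1, Il6st was below day 0 there. The day 3 ratio of 1.36 (1.31 to 1.41) depended on the scaling, with a log2 value of 0.45 by section totals and -0.11 with edgeR TMM factors.

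Because a ratio of 2 genes within 1 section does not depend on the total of that section, the receptor chains were also set against each other. Osmr UMIs per Lifr UMI were 0.187 on day 0 (exact binomial interval 0.167 to 0.209), 0.449 on day 1 (0.379 to 0.530), 0.941 on day 3 (0.876 to 1.01) and 0.308 on day 7 (0.283 to 0.334). The counts of both chains were thus nearly equal at day 3 and unequal on all other days. Per Il6st UMI, Osmr gave 0.0807, 0.113, 0.183 and 0.0969, and Il6ra gave 0.0504, 0.0882, 0.122 and 0.0835. All 3 ratios were highest at day 3. These are ratios of UMI counts followed over days, and they do not rank the chains by abundance.

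**Figure D2:**
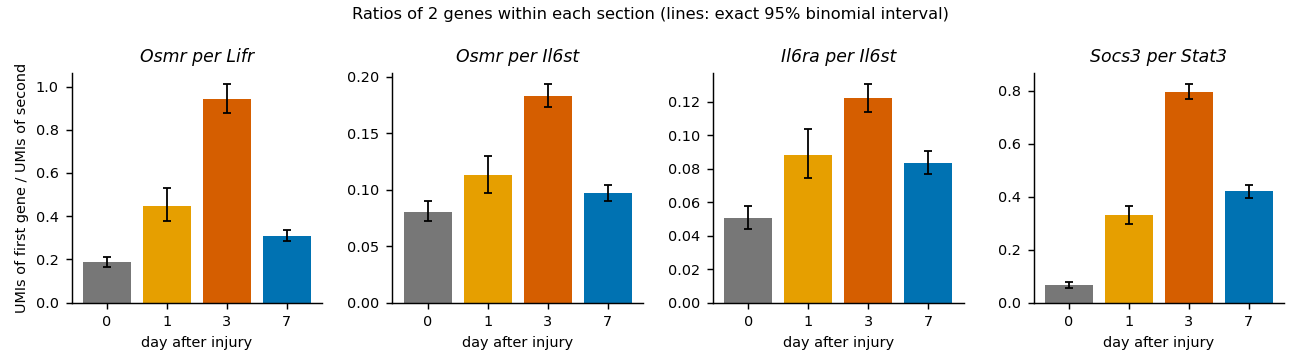
UMIs of 1 gene divided by UMIs of another in the same section (vertical axes from 0) against day after injury, with exact 95% binomial intervals as lines. All 4 ratios peak at day 3, where Osmr per Lifr reaches 0.941 and Socs3 per Stat3 reaches 0.797.

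Downstream of the receptors, Socs3 (ENSMUSG00000053113, chromosome 11, 117966079 to 117970336) was well counted on all days and changed most of the members well detected at day 0. Its 148, 498, 5697 and 1508 UMIs corresponded to 3.37, 29.7, 102 and 36.0 CPM at days 0, 1, 3 and 7. The levels of all 4 days were separated by their intervals. Socs3 was 8.80 times above day 0 on day 1 (7.31 to 10.6), 30.1 times on day 3 (25.6 to 35.7) and 10.7 times on day 7 (9.02 to 12.7). Stat3, the transcription factor that drives it, moved less, with 2207, 1513, 7150 and 3594 UMIs and ratios to day 0 of 1.79 on day 1, 2.53 on day 3 and 1.71 on day 7. By section totals, days 1 and 7 of Stat3 did not differ beyond counting error (ratio of day 7 to day 1 0.953, 0.897 to 1.01). With edgeR TMM factors, which shift log2 ratios by -0.19 on day 1 and -0.61 on day 7, Stat3 was lower on day 7. Socs3 UMIs per Stat3 UMI, shown in the plot of within-section ratios, were 0.0671 on day 0 (0.0564 to 0.0792), 0.329 on day 1 (0.297 to 0.364), 0.797 on day 3 (0.769 to 0.825) and 0.420 on day 7 (0.395 to 0.446).

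The share of spots with a UMI depends on depth, so each spot was thinned to 2000 UMIs and shallower spots were left out, 17 on day 0, 513 on day 1, 9 on day 3 and 84 on day 7. At this depth Socs3 was detected in 0.711% of spots on day 0, 5.58% on day 1, 19.6% on day 3 and 7.12% on day 7, whereas without thinning the shares were 6.22%, 14.9%, 73.2% and 30.6%. Osmr was found in 1.60%, 2.48%, 4.85% and 3.37% of thinned spots, and Osm in 0.0287%, 0.209%, 0.470% and 0.0628%. The order of the days was that of the CPM for each of these 3 genes. For Osm only the shares of days 3 and 7 had intervals that did not overlap, since thinning left 14.2 spots with Osm at day 3 on average.

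For comparison with the rest of the transcriptome, genes with at least 10 UMIs in the 2 sections compared were counted as past the fold when at least 2 times higher or at most 0.5 times as high as at day 0. At day 1, 9 of the 10 members passed this minimum and 3, Osm, Il6 and Socs3, were at least 2 times higher, beside 17.4% of 15091 features. Lif was at most 0.5 times as high, on 3 UMIs, beside 12.3% of features. At day 3 all 10 members passed the minimum and 8 were at least 2 times higher, against 33.3% of 16281 features, and no member was among the 8.26% that were lower. At day 7, 7 of 10 were higher, against 32.7% of 16092 features, and none was among the 2.13% that were lower. Osm, Il6 and Il11 met the minimum only through the injured sections and so could not have been counted without being high there.

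Among the 7 members with at least 10 UMIs on day 0 itself, 1 was at least 2 times higher on day 1 (Socs3), 5 on day 3 (Osmr, Il6ra, Lif, Socs3 and Stat3) and 4 on day 7. The same rule took 14.8%, 28.3% and 27.6% of 14355 features. Lif, Il6ra, Osmr and Stat3 lay within the middle 90% of the features on each injured day, and Socs3 lay above it. With scaling by edgeR TMM factors all log2 ratios were lower by 0.19 on day 1, 0.55 on day 3 and 0.61 on day 7, and then 6 of all 10 members, in place of 8, were at least 2 times higher on day 3, and 4, in place of 7, on day 7. The fold was lost by Lif and Stat3 on day 3 and by Osmr, Il6ra and Il11 on day 7. Fewer of all features were past the fold with TMM factors too. The shares of features by section totals are therefore not the background of these TMM counts. The matching counts of features are given with the processing settings at the end.

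**Figure D3:**
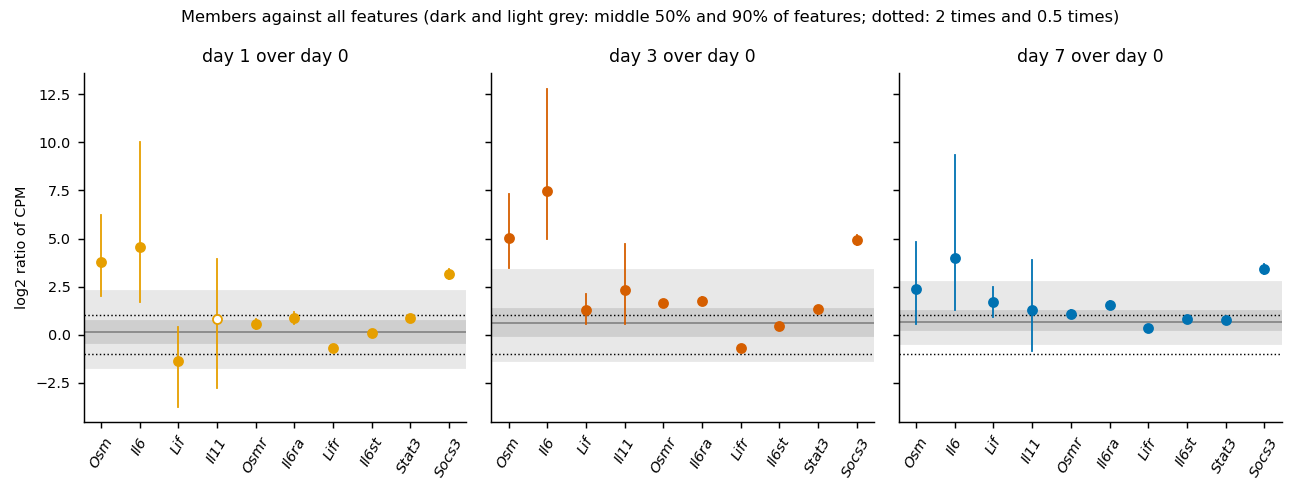
Log2 ratio of CPM to day 0 (vertical axis) for each member (horizontal axis) at days 1, 3 and 7, with exact conditional 95% intervals as lines. The open circle marks Il11 at day 1, which was under the minimum of 10 UMIs. Grey bands hold the middle 50% and 90% of all features that met the minimum, the grey line is their median, and dotted lines mark 2 times and 0.5 times. Socs3 sits above the 90% band on all 3 days, at log2 ratios of 3.14, 4.91 and 3.42.

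Other genes of the pathway were taken as lists of 45 genes. Of the 8 other ligands, Ctf2 and Il31 had 1 and 0 UMIs in all sections together. Clcf1, which encodes a cytokine of the CNTF receptor, was the earliest to be high, with 27, 76, 390 and 163 UMIs and ratios to day 0 of 7.36 on day 1 (4.69 to 11.9), 11.3 on day 3 (7.64 to 17.4) and 6.33 on day 7 (4.20 to 9.90). Ebi3, the shared subunit of interleukin-27 and interleukin-35, was 4.76 times higher at day 3 (3.58 to 6.43). At least 2 times higher were 1 of the 5 ligands that met the minimum of 10 UMIs on day 1, 3 of 6 on day 3 and 5 of 6 on day 7, beside 17.4%, 33.3% and 32.7% of all features.

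The other receptors behaved differently from Osmr and Il6ra. Il11ra1, the receptor for interleukin-11, had 2414, 610, 3622 and 6812 UMIs. At day 7 it was 2.96 times above day 0 (2.82 to 3.1), close to the 2.92 times of Il6ra. Cntfr, the receptor for ciliary neurotrophic factor, had 463, 87, 137 and 488 UMIs and was at 0.491 of its day 0 level on day 1 and at 0.231 on day 3, then at 1.11 on day 7. Lifr, Il11ra1 and Cntfr thus all were below their day 0 level at day 1, where Osmr and Il6ra were above theirs. Il27ra, with 31, 9, 44 and 37 UMIs, had ratios to day 0 with intervals that included 1 on each injured day.

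Among the 8 kinases, STAT factors and adaptors, none was past the fold at day 1 and 3 were higher at day 3, Tyk2 (2.96 times) and Grb2 (2.31 times) among them, a share of 37.5% that is close to the 33.3% of all features. Jak1, the main kinase bound to the Il6st product, stayed between 1.04 and 1.14 times its day 0 level by section totals. The edgeR TMM shifts of log2 -0.19, -0.55 and -0.61 on days 1, 3 and 7 set it below day 0 on each. Both proteases that shed the IL-6 receptor from the cell surface were higher at day 3, Adam10 by 2.14 times and Adam17 by 2.17 times. With edgeR TMM factors Grb2, Adam10 and Adam17 were all under 2 times.

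The 7 feedback inhibitors did not move as 1 group. Ptpn6, a phosphatase of blood cells, was 16.1 times above day 0 at day 1 (13.2 to 19.9) and 20.5 times at day 3 (17 to 25). Socs1, a relative of Socs3, was 4.62 times higher at day 3 (3.71 to 5.80) and 5.20 times at day 7 (4.16 to 6.55). Cish, another member of that family, was lower, at 0.363 of its day 0 level at day 3 and 0.464 at day 7. By section totals, Socs2 stayed between 0.785 and 1.30 times its day 0 level.

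The 16 genes listed as known to respond to STAT3, a list written with earlier results of these data known, were mostly high. At least 2 times higher were 11 of 16 on day 1, 14 on day 3 and 10 on day 7, and the median log2 ratio was 2.66, 3.45 and 1.70, beside 0.15, 0.58 and 0.65 for all features, of which 17.4%, 33.3% and 32.7% were past that fold. Timp1, an inhibitor of matrix proteases, was 27.7, 63.1 and 18.7 times above day 0. Serpina3n, an acute-phase protease inhibitor, was 12.0, 38.1 and 15.7 times above it. Junb, an immediate early transcription factor, was 6.82, 26.9 and 8.32 times above it. Mt1, a metallothionein, was 10.5 times higher on day 1 and 9.53 times on day 3 but 1.1 times on day 7. Cebpd, a transcription factor of the acute phase, was among the exceptions, at 0.649 of its day 0 level on day 1, 1.26 on day 3 and 0.438 on day 7. Many of these genes respond to other signals as well, and they are not a measure of STAT3 activity alone.

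By the distance between log2 levels centred over the 4 sections, the 5 genes most like Socs3 among 14716 were Glipr1, Junb, Otulinl, Serpina3n and Ly9. Among those most like Osmr were Epha2, Itprid2, Icosl and Rfwd3. None are named for Osm, because 0.5 CPM was added before the logarithm and flattens the course of a gene at 0.0684 to 2.23 CPM, as it also does for Glipr1 and Ly9, which were below 0.5 CPM at day 0. The likeness rests on 4 sections only.

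Some marker lists moved with the members between days. The monocyte and macrophage list (10 genes, Cd68, Csf1r, Adgre1 and others) summed to 429 CPM on day 0, 1652 on day 1, 8864 on day 3 and 2181 on day 7. The neutrophil list (8 genes) summed to 6.95, 182, 62.1 and 21.0 CPM, with its defining marker Ly6g at 0 UMIs on all days but day 1. The MSC list (8 genes, Pdgfra and Prrx1 among them) was at 3455, 1046, 3715 and 5015 CPM. Osm, Osmr, Il6, Il6ra, Stat3 and Socs3 shared the day 3 peak of the macrophage list. The regenerating muscle, tendon, dendritic cell and T and NK cell lists were also highest at day 3. Lif and Il6st, and Lifr by section totals, shared the day 7 peak that the MSC list had by section totals. The chondrogenic, osteogenic, endothelial, B cell, Schwann cell and smooth muscle lists were highest at day 7 by section totals too. The log2 shift of -0.61 that edgeR TMM factors give on day 7 sets some of these lists below their day 0 level. These are the MSC, endothelial, B cell, Schwann cell and smooth muscle lists. A shared peak day therefore does not tie a member to 1 cell type. The part of cell numbers in these courses was not tested.

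Within a section, spots with at least 1000 UMIs were therefore ranked by the share of their UMIs on a marker list, and the CPM of each member in the richest 25% of spots was divided by the CPM in the other spots. Osm and Il6ra were higher, and Il6 and Socs3 lower, in the spots richest in macrophage genes at day 3. The same spots were deeper than the rest, with a median of 24520 against 14034 UMIs, and CPM divides by depth. The heat map of marker-rich spots shows these ratios for 7 lists and 3 days.

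**Figure D4:**
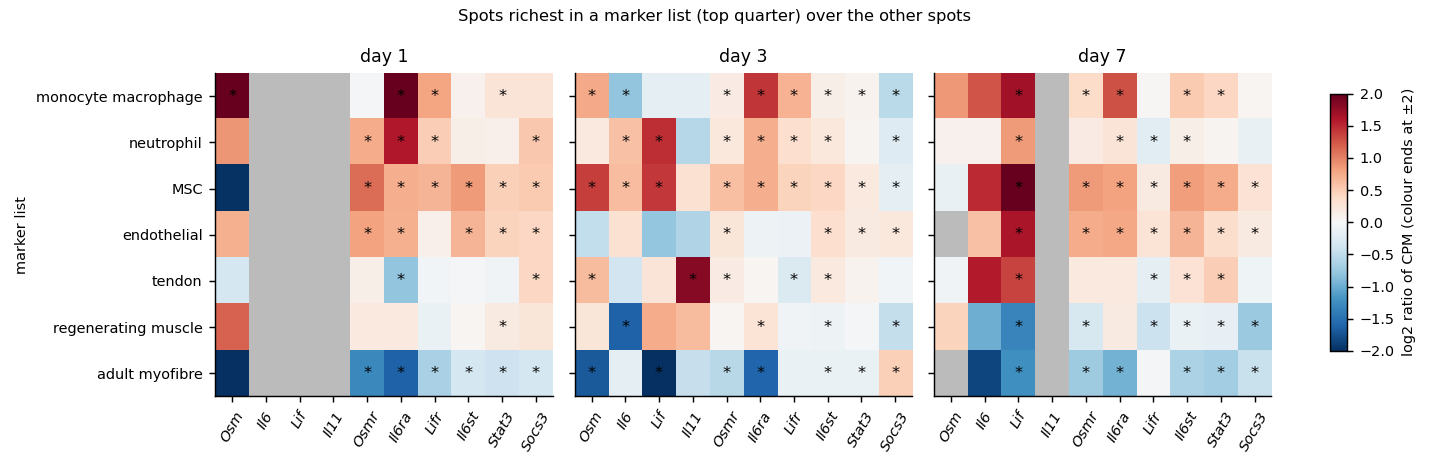
Log2 ratio of a member's CPM in the 25% of spots richest in a marker list to its CPM in the other spots, for days 1, 3 and 7, with members as columns and lists as rows. Red is higher in the rich spots, blue is lower, grey has under 10 UMIs or none in a spot group, and stars mark exact 95% intervals that do not include equality. Il6ra is red for the macrophage list on all 3 days (4.67, 2.70 and 2.42 times), and Socs3 is blue for it at day 3 (0.687 times).

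Il6ra was higher in macrophage-rich spots in every section. At day 3 it had 576 UMIs in those rich spots and 404 in the others, 29.7 against 11 CPM, a ratio of 2.70 (2.37 to 3.07). The ratio was 4.67 at day 1 (3.37 to 6.47) and 2.42 at day 7 (2.06 to 2.83), and it was already 2.39 in uninjured muscle. In the 25% of spots richest in adult myofibre genes Il6ra was at 0.334 of its level elsewhere at day 3 (0.246 to 0.443).

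Osm followed the macrophage list more weakly and on fewer UMIs. At day 3, 59 of its 125 UMIs lay in the macrophage-rich spots, giving 3.04 against 1.80 CPM and a ratio of 1.69 (1.17 to 2.44). At day 1 the UMIs were 8 and 8 and the ratio 4.55 (1.49 to 13.9). In the spots richest in MSC genes Osm reached 3.84 CPM at day 3, against 1.47 elsewhere, a ratio of 2.62 (1.81 to 3.79), and in the myofibre-rich spots it had 6 UMIs and a ratio of 0.313 (0.113 to 0.701).

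Its receptor Osmr was higher in MSC-rich spots in every section. The ratio was 1.52 in uninjured muscle, 2.16 on day 1 (1.60 to 2.90), 1.52 on day 3 (1.37 to 1.69) and 1.80 on day 7 (1.55 to 2.08). For the macrophage list at day 3 it was 1.12 (1.00 to 1.24), and it turned to 0.870 when mitochondrial, haemoglobin and adult myofibre genes were left out of the totals, so no direction holds there. Osmr was lower in myofibre-rich spots, at 0.411, 0.680 and 0.613 of its level elsewhere at days 1, 3 and 7.

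For the macrophage list at day 3, Il6 and Socs3 had ratios on the other side of 1 from those of Osm and Il6ra. The first had 53 UMIs in the macrophage-rich spots and 173 in the other spots, 2.73 against 4.71 CPM, a ratio of 0.580 (0.418 to 0.793). At day 1, on 9 UMIs, its ratio was 5.69 (1.22 to 28.7), on the other side of 1. In the spots richest in regenerating muscle genes, such as Myh3 and Myog, its ratio was 0.327, while in MSC-rich spots it was 1.54 (1.17 to 2.02) and in neutrophil-rich spots 1.5 (1.13 to 1.97). Socs3 was at 78.2 CPM in macrophage-rich spots and 114 CPM elsewhere at day 3, a ratio of 0.687 (0.647 to 0.728). Across 4 equal groups of spots from the poorest to the richest in macrophage genes its level ran 152, 115, 89.6 and 78.2 CPM, whereas that of Il6ra ran 4.18, 9.33, 16.5 and 29.7 CPM.

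Along the adult myofibre list the Socs3 order at day 3 was the reverse, 72.7, 98.5, 133 and 134 CPM from the poorest to the richest 25% of spots. The richest 25% were 1.39 times above the others (1.30 to 1.49), but the richest 10% were not, with a log2 ratio of -0.04. The other sections did not show this order. In uninjured muscle Socs3 was higher in macrophage-rich spots, with a ratio of 1.82 (1.28 to 2.58) on 148 UMIs. At day 1 Socs3 in macrophage-rich spots had a ratio of 1.19 with an interval that included 1 (0.947 to 1.48), at day 7 it had 1.03 (0.920 to 1.14), and in myofibre-rich spots it was lower on both days, at 0.787 and 0.733. No test of the difference between days was possible with 1 section each.

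**Figure D5:**
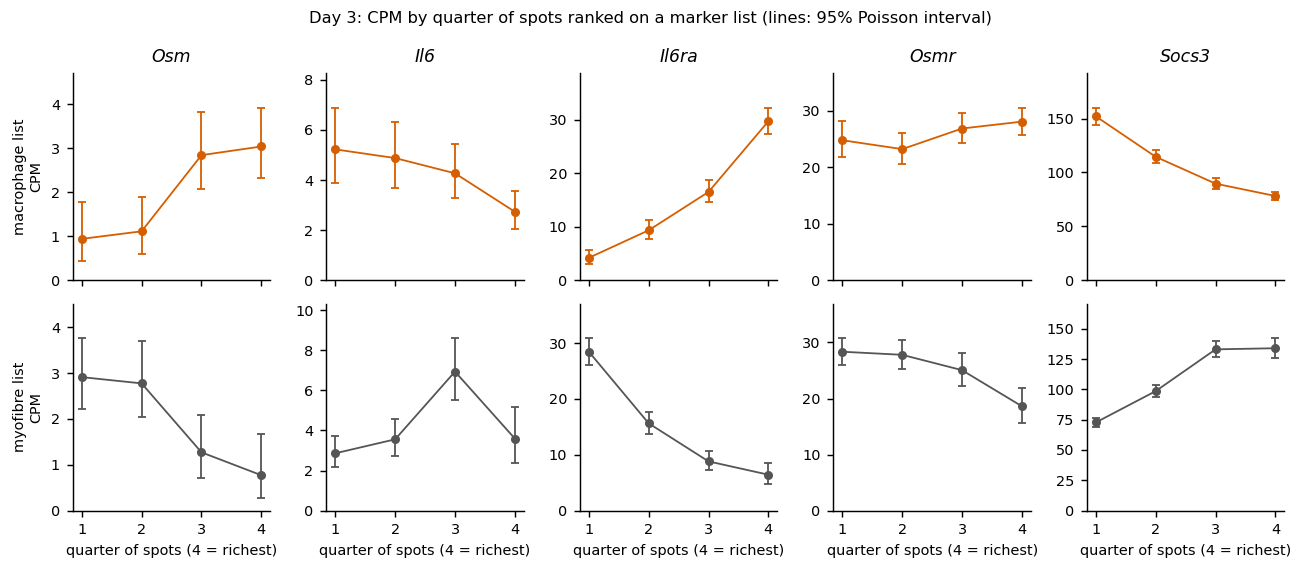
CPM of 5 members at day 3 (vertical axes from 0) in 4 equal groups of spots ordered by their share of macrophage marker UMIs (upper row) or adult myofibre marker UMIs (lower row), from 1, the poorest, to 4, the richest. Lines are exact 95% Poisson intervals. Il6ra climbs from 4.18 to 29.7 CPM and Socs3 declines from 152 to 78.2 CPM along the macrophage list.

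Lif UMIs lay mostly in MSC-rich spots. At day 7, 47 of its 61 UMIs lay in those spots, 3.90 against 0.470 CPM, a ratio of 8.29 (4.49 to 16.3), and at day 3 the ratio was 2.66 (1.57 to 4.53). Il6st at day 7 reached 269 CPM in MSC-rich spots and 150 CPM elsewhere, a ratio of 1.79 (1.71 to 1.87), and Stat3 there had a ratio of 1.67 (1.57 to 1.79). Il11 at day 3 had a ratio of 3.53 in the 25% of spots richest in tendon genes, on 19 UMIs in all. For the macrophage list at day 3 the ratios of Lif and Il11 had intervals that included 1, and those of Il6st and Stat3, 1.08 and 1.05, turned to log2 values of -0.25 and -0.29 when mitochondrial, haemoglobin and adult myofibre genes were left out of the totals.

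Ligand and receptor transcripts were next looked for in the same spot. Thinned to 2000 UMIs, Osm and Osmr were found together in 0.0281% of spots at day 3, fewer than 1 spot on average, against 0.0228% for the product of their shares. Lif and Lifr at day 7 were found together in 0.0695% of thinned spots, 2.05 spots on average, with an interval of 0.00822% to 0.245% that includes the product of their shares, 0.0303%. Without thinning, at day 3, 56 of the 117 spots with Osm also had Osmr, 1.85% of all spots, against 1.30% for the product of their shares. Il6st was in 107 of the 117, but it was in 82.7% of all spots. The joint share of Osm and Il6st, 3.53%, was near the product, 3.20%. The spots with Osm were deeper, with a median of 25107 UMIs against 15738 in the spots without Osm. The level of other genes in them was therefore compared as CPM. Osmr was at 29.7 CPM in spots with Osm and 25.9 CPM in the others, a ratio of 1.15 (0.916 to 1.42), and Socs3 had a ratio of 1.02 (0.904 to 1.14). Neither Osmr nor Socs3 therefore differed detectably between spots with and without Osm. Several marker lists were higher in the spots with Osm, the T and NK cell list by 1.94 times (1.55 to 2.41), the MSC and tendon lists by 1.44 times each, the macrophage list by 1.36 times and the regenerating muscle list by 1.34 times, and the adult myofibre list was at 0.574 of its level elsewhere.

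The ligands were also compared in each other's spots. In the 176 spots with Il6 at day 3, Osm was 2.28 times higher than in the other spots (1.28 to 3.82), and Socs3 was 1.13 times higher (1.02 to 1.25). In the spots with Osm the ratio of Il6 was 1.52 with an interval that included 1 (0.882 to 2.46). Of the marker lists, the adipocyte list had the highest ratio in the spots with Il6, 1.83 (1.77 to 1.89). The chondrogenic list came next with 1.60 (1.41 to 1.80), then the tendon list with 1.36 (1.32 to 1.41). The neutrophil list had 1.32 and the MSC list 1.19 there. The adult myofibre, regenerating muscle and macrophage lists were lower in the spots with Il6, at 0.897, 0.922 and 0.981 of their level elsewhere. In the spots with Osm the adipocyte list was lower, at 0.779 of its level elsewhere. In the 54 spots with Lif, Il6 was 3.18 times higher (1.88 to 5.09), while Osm did not differ detectably, with a ratio of 0.563 (0.0674 to 2.08). In the spots with Osm, Lif was 2.92 times higher (1.27 to 5.97) on 9 UMIs. A single spot held 8 Lif UMIs at day 3, and the interval counts UMIs of 1 spot as independent. This ratio of Lif can therefore rest on 1 spot, and Osm and Lif gave no single direction. Spots are not replicates, and neighbouring spots of 1 section share tissue and library.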

How the data were processed

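Fresh frozen tibial muscle sections were profiled by spatial transcriptomics. The deposited matrices hold raw UMI counts per gene and spot, not normalized, and per the file headers were written by Space Ranger 1.2.0, whereas the study's methods name another release and the labels give none. The labels give the build mm10. The authors kept spots over tissue. Each day had 1 section. In all, 1341 barcodes occurred in all 4 sections, since arrays of this kind share a set of position barcodes. Section totals ranged from 16777832 to 56113066 UMIs.

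UMIs were summed per section and divided by the section's total. Intervals are exact 95% Poisson intervals for levels, exact conditional binomial intervals for ratios and Clopper-Pearson intervals for shares. A section at 0 UMIs was entered at 3 UMIs as a bound. Intervals cover counting error only. Thinning used 20 seeded draws. Likeness used log2(CPM + 0.5) over genes with at least 50 UMIs in all. No doublet caller was run, as spots hold several cells. Alternatives were edgeR 4.0.16 TMM factors, DESeq2 1.42.0 size factors, other totals, filters and thinning depths. The functions were tested on simulated data. R 4.3.3, Python 3.11.15, NumPy 2.4.6 and SciPy 1.17.1 were used.

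Named genes were the 10 members, all genes of the pathway and marker lists, of which a part is printed, and the 5 genes most like Osm, Osmr and Socs3. Some of these genes are not reported here. The members and lists were chosen with earlier results of these data known. The comparison of spots with and without a ligand was added after seeing the data.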

Additional observations from a re-analysis of the deposited data

Results flagged for a closer look

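Lifr stood out because its level moved in opposite directions on different days, beyond counting error. It was at 0.607 of its day 0 level at day 1 (interval 0.547 to 0.672) and at 0.613 at day 3 (0.574 to 0.656), but at 1.28 times that level at day 7 (1.21 to 1.36). The difference between days was not tested, since each day had 1 section. Scaled by edgeR TMM factors, the log2 ratio of day 7 was -0.25 instead of 0.36, so its side of day 0 depends on the scaling, whereas the values of days 1 and 3 stayed below day 0 under all 4 scalings and spot filters tried.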

How the results depend on the processing

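Of 29 member ratios to day 0, none past the fold changed sign under the 4 other scalings and spot filters. All 29 stayed within their counting intervals with spots of at least 1000 UMIs. Only 14 of 29 did so with edgeR TMM factors and 14 with DESeq2 size factors. Without mitochondrial, haemoglobin and adult myofibre genes in the totals, 16 did so. The cause of the changes below was not tested beyond what each setting does by construction. At day 1, 3 members were higher and 1 lower, 5 and 2 with a fold of 1.5, and 1 and 0 with at least 50 UMIs. At day 3, 8 members were higher, but 6, without Lif and Stat3, with TMM or DESeq2 factors. Where no member was lower at day 3, 1 (Lifr) was lower with edgeR TMM factors, with DESeq2 size factors, without mitochondrial, haemoglobin and adult myofibre genes and with a fold of 1.5. At day 7, where 7 members were higher, 4 were with TMM factors, DESeq2 size factors or at least 50 UMIs. Of the other pathway genes, 1 was lower at day 1, but 3 with TMM factors and 3 without those muscle and mitochondrial genes, and 22 were higher at day 7, but 13 with TMM factors.

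Counts over all features moved too. At day 1, 2624 were higher and 1858 lower. With a fold of 1.5 these were 4499 and 3203, and with a minimum of 1 UMI 5084 were higher. At day 3, 5418 were higher, and 3333 with TMM and 3290 with DESeq2 factors. Lower at day 3 were 1344, against 2680 with TMM factors, 2708 with DESeq2 factors, 2102 without muscle and mitochondrial genes, 2262 with a fold of 1.5 and 2658 with a minimum of 1 UMI. At day 7, 5258 were higher, against 2547, 2485 and 8744 with TMM, DESeq2 and a fold of 1.5. Lower at day 7 were 343, against 1070, 1125, 696, 1453 and 195 with TMM, DESeq2, a fold of 1.5, a minimum of 1 UMI and of 50 UMIs.

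Osm and Osmr shared 0.0281% of thinned spots at day 3 and 1.85% of unthinned spots. Leaving those muscle and mitochondrial genes out of the totals turned the log2 ratio at day 3 in macrophage-rich spots to -0.20 for Osmr, -0.25 for Il6st and -0.29 for Stat3, in myofibre-rich spots to 0.19 for Il6st and 0.20 for Stat3, and in MSC-rich spots to -0.0625 for Stat3. At day 7 it turned Lifr in MSC-rich spots to -0.12, Socs3 there to -0.0043 and Il6st in neutrophil-rich spots to -0.0169. Socs3 in macrophage-rich spots at day 3 moved from -0.54 to -0.90. In the richest 10% of spots the day 3 values in macrophage-rich spots were -0.0471 for Osmr and -0.058 for Il6st, that of Socs3 in myofibre-rich spots was -0.0401, and that of Lifr in neutrophil-rich spots at day 7 was 0.0548. No paired analysis was possible because each day had 1 section. Depth limits Osm, Il6, Lif and Il11 most, each with at most 20 UMIs at day 0.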
